A study of Homo sapiens with 6 samples.

Results

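TXNIP, its closest alpha-arrestin relatives and the transcription factors that read glucose were followed in HEK293T cells with active mTOR and after mTOR was inhibited with PP242. The set has 7 genes, TXNIP, ARRDC2, ARRDC3, ARRDC4, MLX, MLXIP and MLXIPL, of 19211 named genes in the mRNA-seq table, where they have 13 RefSeq transcripts. They were taken by gene name, but were chosen with the measured difference between growing and PP242 libraries in view, so their values in this comparison are a description and carry no test. HEK293T is a human embryonic kidney line that carries the SV40 large T antigen, grown here in DMEM with serum and antibiotics. Growing cells received no inhibitor, and mTOR-inactive cells received PP242, which blocks the kinase mTOR, at 2.5 µM for a time that the labels do not give. mRNA-seq has 2 libraries per condition, described as biological duplicates with libraries made in parallel, and PAR-CLIP of LARP1, which maps the RNA contacts of that protein, has 1 library per condition. The PAR-CLIP cells, unlike those for mRNA-seq, had received 4-thiouridine (100 µM, 14 hr) and were crosslinked by ultraviolet irradiation at 150 mJ/cm2 in both conditions.

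TXNIP binds and inhibits thioredoxin and, like other alpha-arrestins, acts as an adaptor that brings ubiquitin ligases to membrane proteins. Its transcription is driven by MondoA, the product of MLXIP, which pairs with MLX, enters the nucleus when glucose 6-phosphate accumulates and binds carbohydrate response elements, made of a pair of E-box-like sequences 5 bases apart. ChREBP, the product of MLXIPL, is the related factor best known from liver. TXNIP and ARRDC4 are known targets of these factors, and their products lower glucose uptake.

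The starts of the genes that differed most carry different elements, shown here because the sequences bear on this known circuit. All 7 genes have at least 1 of 10 starts in the RefSeq promoter table (GRCh38.p14), which holds 250 bases before and 50 after each start. The coordinates below are on GRCh37, where each sequence was found by exact match. Searched were CACGTG, the E-box, and a pair of CNCGNG separated by 5 bases, both of which read the same on either strand. CCAAT and its complement ATTGG were added after the sequences had been seen. The 250 bases before the first TXNIP start (chr1:145438240-145438489, plus strand), before the ARRDC4 start (chr15:98503683-98503932, plus strand) and before the first ARRDC3 start (chr5:90679135-90679384, minus strand) are printed 5′ to 3′, with every match in capitals.
TXNIP: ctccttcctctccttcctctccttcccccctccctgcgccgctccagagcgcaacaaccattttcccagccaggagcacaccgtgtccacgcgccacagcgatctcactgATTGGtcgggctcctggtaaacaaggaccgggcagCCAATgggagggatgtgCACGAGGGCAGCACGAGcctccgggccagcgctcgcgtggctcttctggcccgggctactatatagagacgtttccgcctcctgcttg
ARRDC4: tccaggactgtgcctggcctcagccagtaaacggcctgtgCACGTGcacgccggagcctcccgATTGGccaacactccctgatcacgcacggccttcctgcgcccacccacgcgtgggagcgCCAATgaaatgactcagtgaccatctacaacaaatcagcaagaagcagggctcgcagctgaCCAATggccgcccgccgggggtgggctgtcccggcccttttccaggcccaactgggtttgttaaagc
ARRDC3: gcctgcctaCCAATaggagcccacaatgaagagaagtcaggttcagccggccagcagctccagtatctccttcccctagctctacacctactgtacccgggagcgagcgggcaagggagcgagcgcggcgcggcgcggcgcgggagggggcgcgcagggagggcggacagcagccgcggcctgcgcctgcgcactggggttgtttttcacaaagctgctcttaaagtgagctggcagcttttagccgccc

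TXNIP has a pair from -88 to -72, counted from the start, in which both elements read CACGAG, with CCAAT at -105 and ATTGG at -140. ARRDC4 has the E-box at -210, ATTGG at -187 and CCAAT at -128 and -67. ARRDC3 has only CCAAT at -241 in the stretch printed. The E-box is in 7.26% of 35116 promoters of this length, the pair in 2.22%, CCAAT on either strand in 34.6%, and CCAAT together with an E-box or a pair in 2.75%. MLX and ARRDC2 are shown for comparison as 60 bases around the E-box of MLX (chr17:40719041-40719100, plus strand) and the pair of ARRDC2 (chr19:18111873-18111932, plus strand), which alone are in capitals.
MLX: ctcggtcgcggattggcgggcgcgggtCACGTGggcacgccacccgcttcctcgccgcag
ARRDC2: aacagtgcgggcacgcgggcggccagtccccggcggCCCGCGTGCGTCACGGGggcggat

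The E-box of MLX begins at -50, with ATTGG at -66, so MLX also has CCAAT together with an E-box, and the pair of ARRDC2 at -24, where the elements read CCCGCG and CACGGG. MLXIP holds only ATTGG at -76, the MLXIPL promoter and the second starts of TXNIP and ARRDC3 hold none of these letters, and the second start of ARRDC2 holds ATTGG at -93. An E-box or a pair thus stands before 1 start each of TXNIP, ARRDC4, MLX and ARRDC2. Of these, TXNIP and ARRDC4 had higher mRNA in both PP242 libraries, MLX lower and ARRDC2 overlapping values. Genes are counted here and promoters in the shares above, so these cannot be compared. A match of letters is not evidence of binding.

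**Figure D1:**
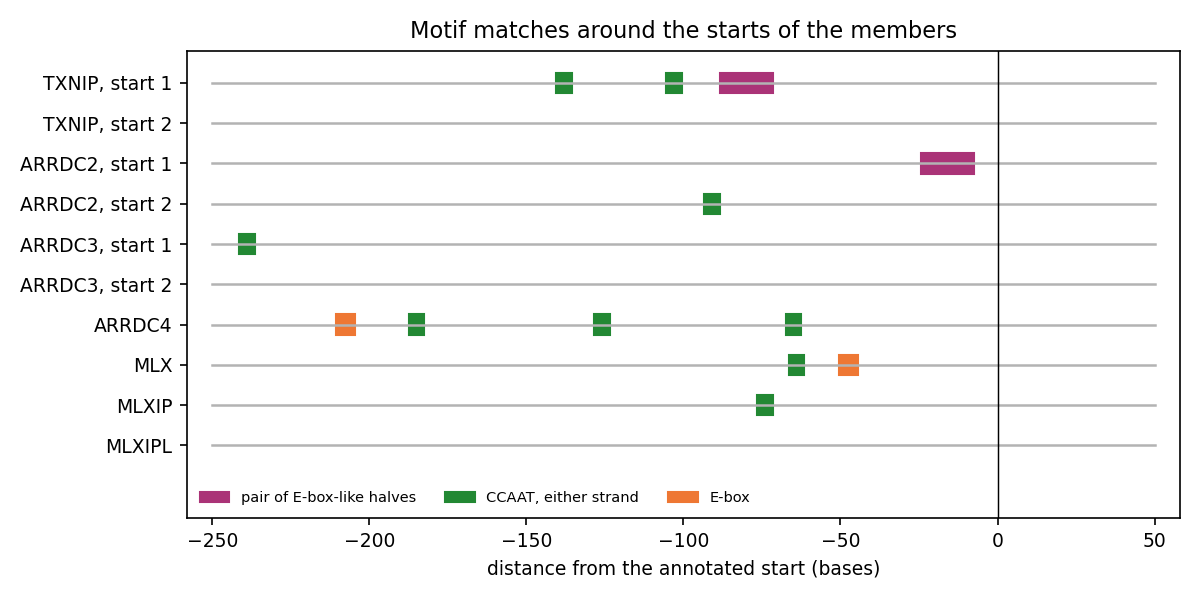
Motif matches around the 10 annotated starts of the 7 genes, with the distance from the start in bases on the x axis and 1 line per start. Purple marks the pair of E-box-like elements, orange the E-box and green CCAAT on either strand, and the matches of TXNIP and ARRDC4 lie between -210 and -63.

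The mRNA-seq table gives RPKM, reads scaled to transcript length and to the mapped reads of the library, which holds no read number. From the steps between low values, growing library 2 was 1.06 times and the mTOR-inactive libraries 1.04 and 1.06 times as deep as growing library 1. Between 36046 and 36149 transcripts were above 0 in a library. Of the HEK293 markers, VIM (212 and 210 RPKM growing, 238 and 239 after PP242) and KRT18 (18.6 to 20.1 RPKM) were high, NEFM lay at 15.7 to 18.2 RPKM and KRT8 at 2.87 to 3.19 RPKM, whereas PAX2 did not exceed 0.136 RPKM. VIM was higher after PP242 (log2 difference 0.17, SE 0.02, limma with Benjamini-Hochberg adjustment, adjusted p = 0.00704). Markers of leukocytes (PTPRC), hepatocytes (ALB), endothelium (PECAM1), fibroblasts (COL3A1) and muscle (MYOD1) were at or below 0.481 RPKM in every library, and NEFL and HBB were not analysed here.

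TXNIP was the member with the largest difference. TXNIP (NM_006472.3; GRCh37, chr1:145438490-145442635, plus strand) was at 7.15 and 7.89 RPKM in the growing libraries and at 22.3 and 21.7 RPKM in the mTOR-inactive libraries. Both PP242 libraries lay far above both growing libraries, and the libraries of a condition were close. The mean went from 7.52 ± 0.525 to 22.0 ± 0.432 RPKM (SD, n = 2 per condition), 2.92-fold, and single pairs of libraries gave 2.75-fold to 3.12-fold. On the log2(RPKM + 1) scale used throughout, which understates changes of low mRNAs, the difference was 1.43 with a pooled SD of 0.07. This difference had rank 5, counted from the highest, of 11319 genes with a mean of at least 1 RPKM. Their median difference was -0.005 and their central 95% lay between -0.31 and 0.20. The entries above TXNIP were histone genes. Of these, HIST1H4A and HIST2H4A had the same values in every library, so they may not be separate signals. RPKM is measured in bulk, so a change in every cell and a change in part of the cells cannot be told apart.

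ARRDC3 and ARRDC4 were also higher after PP242, by smaller amounts. ARRDC3 (NM_020801.2; chr5:90664448-90679134, minus strand), an adaptor for the removal of beta-adrenergic receptors, was at 2.46 and 2.67 RPKM in growing and at 3.70 and 3.51 RPKM in mTOR-inactive libraries. The conditions did not overlap, and the ratio of the means was 1.40 (2.57 ± 0.148 to 3.60 ± 0.133 RPKM, SD, n = 2), with single pairs between 1.31 and 1.50. Its log2 difference was 0.37 with a pooled SD of 0.05, rank 79 of 11319. ARRDC4 (NM_183376.2; chr15:98503933-98517063, plus strand), which like TXNIP lowers glucose uptake, was at 4.82 and 5.41 RPKM in growing and at 6.30 and 6.70 RPKM in mTOR-inactive libraries. Here too both PP242 libraries were above both growing libraries. The ratio of the means was 1.27 (5.11 ± 0.412 to 6.50 ± 0.284 RPKM), with single pairs between 1.17 and 1.39, and the log2 difference was 0.30 with a pooled SD of 0.08, rank 120.

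ARRDC2, the remaining alpha-arrestin of the set, did not separate. ARRDC2 (chr19:18111941-18124911, plus strand) has transcripts NM_001025604.1 and NM_015683.1, whose sum was 3.86 and 3.42 RPKM in growing and 3.88 and 3.72 RPKM in mTOR-inactive libraries. The growing library 1 was level with the PP242 libraries, and both transcripts overlapped between conditions. The log2 difference was 0.07 for the first and 0.02 for the second transcript.

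TXNIP therefore made up a larger part of the alpha-arrestin mRNA after PP242. Summed over TXNIP and ARRDC1 to ARRDC5, the 6 genes had 30.0 and 30.7 RPKM in growing and 49.0 and 47.7 RPKM in mTOR-inactive libraries. TXNIP held 23.9% and 25.7% of this sum in growing and 45.4% in both mTOR-inactive libraries. ARRDC1, which is no member of the set and helps to form vesicles at the plasma membrane, was the largest part under growing conditions, with 39.0% and 36.9%, and had 26.2% and 25.4% after PP242. ARRDC4 went from 16.1% and 17.6% to 12.9% and 14.0%, and ARRDC3 from 8.23% and 8.69% to 7.54% and 7.35%. The shares of both were thus lower although their own RPKM was higher. Shares are tied to each other through the sum and are given as a description.

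**Figure D2:**
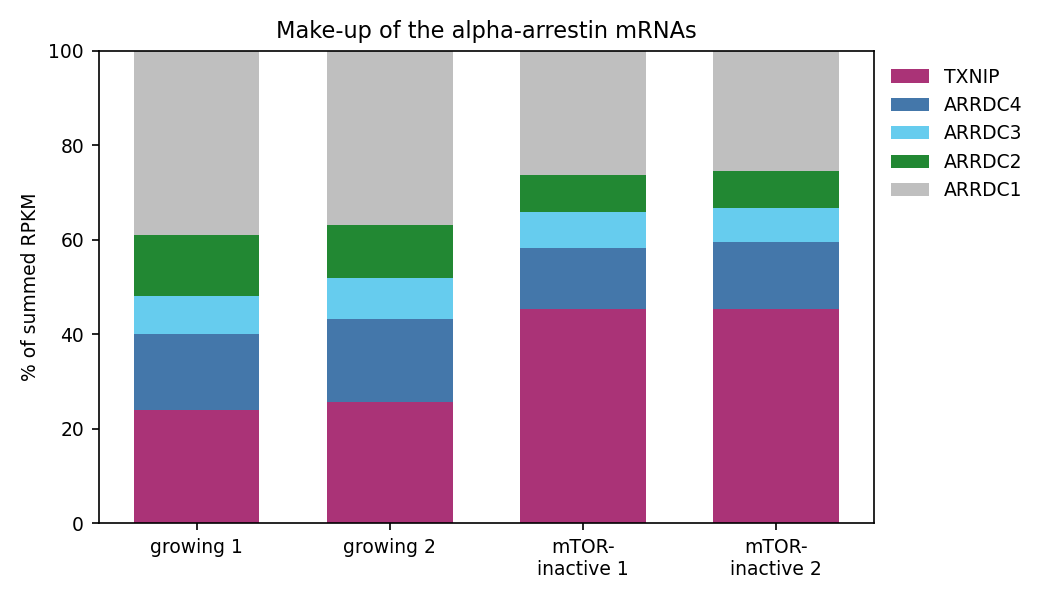
Share of each alpha-arrestin gene in their summed RPKM, in percent, for each of the 4 mRNA-seq libraries (stacked bars, summed over the transcripts of a gene). TXNIP held 23.9% and 25.7% in the growing libraries and 45.4% in both mTOR-inactive libraries, and ARRDC5 is too low to be seen.

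Of the transcription factors, only MLX separated between the conditions in its summed level, and it was lower. MLX (chr17:40719090-40725257, plus strand), the shared partner of MondoA and ChREBP, has transcripts NM_198204.1, NM_198205.1 and NM_170607.2. Because reads that match several transcripts were divided evenly among them, these can share reads and are not independent, and their sum is the better level. It was 20.5 RPKM in both growing libraries and 18.2 and 17.8 RPKM in the mTOR-inactive libraries. Both PP242 libraries were below both growing libraries in the sum and in each transcript, by log2 differences of -0.16, -0.19 and -0.14. The ratio of the summed means was 0.879 (20.5 ± 0.0152 to 18.0 ± 0.266 RPKM, SD, n = 2). The main transcript had the rank 1076 of 11319 counted from the lowest difference, within the central 95% of genes.

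MLXIP (NM_014938.4; chr12:122516628-122631894, plus strand), which encodes MondoA, was at 12.6 and 12.2 RPKM in growing and at 12.4 and 12.9 RPKM in mTOR-inactive libraries. The conditions overlapped, with a log2 difference of 0.03 and a pooled SD of 0.03. MLXIPL (chr7:73007524-73038873, minus strand) has 4 transcripts, each below the 1 RPKM filter, with a sum of 1.92 and 2.22 RPKM in growing and 2.16 and 2.30 RPKM in mTOR-inactive libraries. The sums overlapped, with a log2 difference of 0.07, although NM_032952.2 and NM_032954.2, at 0.457 to 0.561 RPKM, were each slightly higher in both PP242 libraries.

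**Figure D3:**
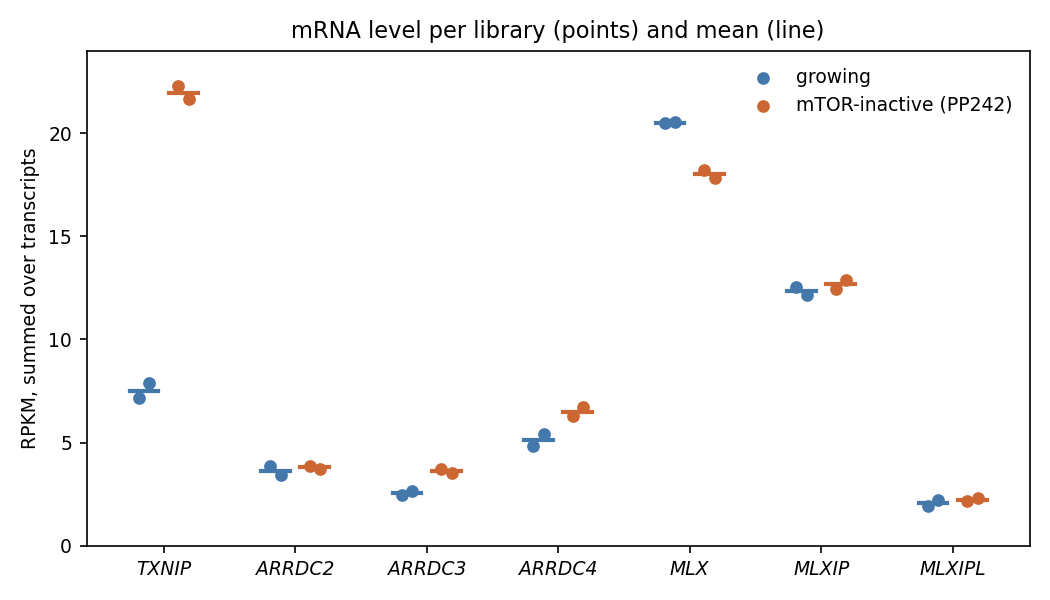
mRNA level in RPKM, summed over the transcripts of each gene, with 1 point per library (blue, growing; orange, mTOR-inactive) and a line at the mean of the 2 libraries. The means of TXNIP are 7.52 and 22.0 RPKM, ARRDC3 and ARRDC4 are higher in both mTOR-inactive libraries, MLX is lower in both, and ARRDC2, MLXIP and MLXIPL overlap.

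In all, with RPKM summed over transcripts, 3 of the 7 genes were higher in both PP242 libraries, 1 was lower in both and 3 overlapped. The main transcript of 6 of the 7 genes passed the filter of 1 RPKM, and of these 6, 3 were higher, 1 lower and 2 overlapped. Of all 11319 genes tested, also by main transcript, 27.8% were higher and 31.8% lower without overlap. Nothing can be read from this share here, because the genes were chosen on this comparison. Per length, the order under growing conditions was MLX, MLXIP, TXNIP (7.52 RPKM), ARRDC4, ARRDC2 (3.64 RPKM), ARRDC3 and MLXIPL (2.07 RPKM). After PP242, TXNIP was first, followed by MLX, MLXIP, ARRDC4, ARRDC2 (3.80 RPKM), ARRDC3 (3.60 RPKM) and MLXIPL (2.23 RPKM). The libraries of neighbours in either order did not overlap, although ARRDC2 and ARRDC3 after PP242 came close, at 3.72 and 3.70 RPKM in their nearest libraries.

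**Figure D4:**
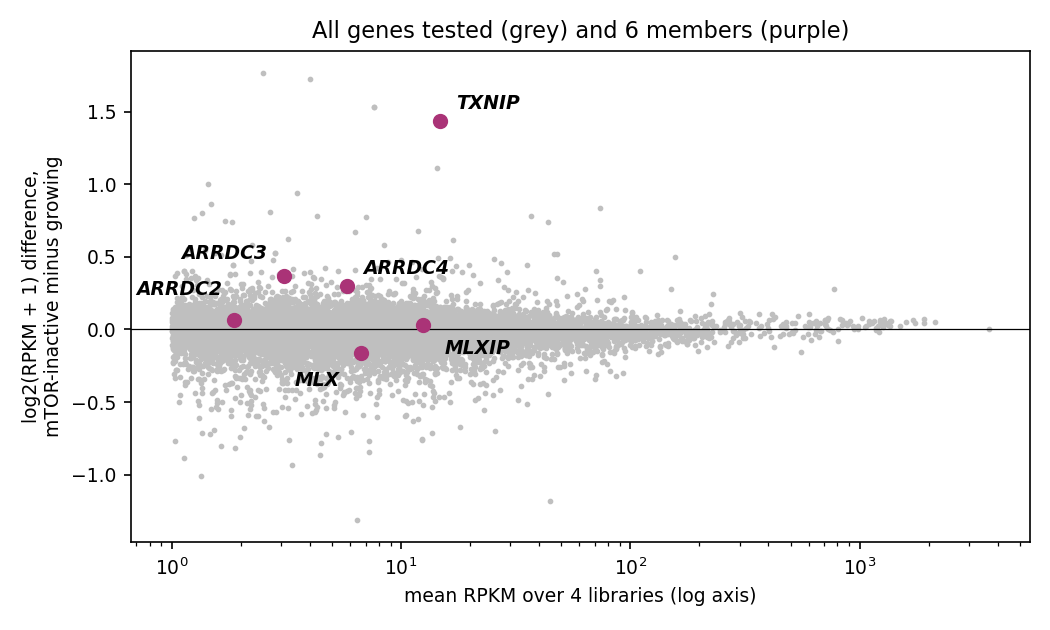
log2(RPKM + 1) difference, mTOR-inactive minus growing, against the mean RPKM over the 4 libraries (log axis), for 11319 genes (grey) and the 6 members with a mean of at least 1 RPKM (purple). TXNIP stands at 1.43 and ARRDC3 and ARRDC4 at 0.37 and 0.30, whereas ARRDC2, MLXIP and MLX lie within the central 95% of genes (-0.31 to 0.20).

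The genes nearest to TXNIP over the 4 libraries, by the Euclidean distance between centred log2(RPKM + 1) values, were histone genes. Where replicates are close, as for TXNIP, this distance mostly reflects the difference between conditions, on which the members were chosen. Nearness to TXNIP thus mainly means a difference of like size. Shared regulation was not tested. The transcripts deposited as HIST1H4A (NM_001034077.4) and HIST2H4A (NM_003548.2) were closest at 0.192. Both had the same values, 3.53 and 3.33 RPKM growing and 12.6 and 11.1 RPKM after PP242. Whether the deposited gene names are right was not tested. HIST3H2A followed at 0.327, HIST1H2AC at 0.434 and HIST3H2BB at 0.47, and no gene lay within 0.1 of TXNIP. Closest to ARRDC3 were HOXA6 (0.0442), ZNF165 (0.0463) and C6orf48 (0.0465), and closest to ARRDC4 were RP11-206L10.2 (0.016), SIK3 (0.0339) and YEATS2 (0.0574). Within 0.1 lay 31 genes for ARRDC3 and 40 for ARRDC4. The profiles of MLX (nearest ALAS1, NR2F1 and FEM1B), ARRDC2 (PEX16, TRMT61A and RASL10B) and MLXIP (CBWD1, ICA1L and PPP2R4) were common, with 1580, 2354 and 5180 genes within 0.1.

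The wider pathway was read from lists of 65 other genes, of which 50 had a main transcript of at least 1 RPKM. After PP242, 4 of the 50 were higher and 2 lower (limma with Benjamini-Hochberg adjustment over 21014 transcripts, threshold 0.05), 8% and 4%, against 3.86% and 8.47% of all genes tested. The lists were drawn up with earlier results of these data known. These counts, and the adjusted p-values of list genes below, are therefore no independent test. For 1 gene alone, 2 against 2 libraries allow no two-sided p below 0.333 in an exact permutation test, so the calls rest on the spread shared across genes. The description as biological duplicates does not say whether the cultures were separate, and if they were not, the p-values measure only the spread between these libraries, which may be technical.

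Among the MAX-MLX network, the basic helix-loop-helix factors that share MAX or MLX as partners, 1 of 7 genes tested was called (median log2 difference -0.03). MYC, the growth-promoting factor of the network, was at 32.0 and 32.9 RPKM in growing and at 54.5 and 55.0 RPKM in mTOR-inactive libraries, a log2 rise of 0.74 (SE 0.0259, limma adjusted p = 0.000374). The main transcript of MAX, the partner of MYC, was at 10.0 and 9.65 RPKM growing and 9.06 and 9.28 RPKM after PP242 (-0.09, limma adjusted p = 0.145), but 2 other MAX transcripts were called lower (-0.17 and -0.14, limma adjusted p = 0.0433 and 0.0468), and so was MAX summed over its transcripts (-0.14, limma adjusted p = 0.0231). MXI1, a repressor that pairs with MAX, missed the threshold with its main transcript (-0.18, limma adjusted p = 0.0552) and passed it when summed (-0.19, limma adjusted p = 0.0304). MXD1, of the same repressor family and below 1 RPKM in its main transcript, was called higher when summed, from 1.67 and 1.73 to 2.41 and 2.36 RPKM (0.33, limma adjusted p = 0.0105). MXD3 and MXD4, whose main transcripts were the most abundant after MYC (means of 22.3 and 19.9 RPKM growing), had differences of -0.03 and -0.05.

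Of the known targets of the glucose response, which MondoA or ChREBP activate, 12 were tested, and 2 were called higher and 1 lower. Of all genes tested, 3.86% were called higher and 8.47% lower. The median difference of the targets was 0.0039, and 6 of the 12 had an unadjusted limma p under 0.05, in either direction. RGS16, a regulator of G protein signalling and a known ChREBP target, fell from 6.24 and 5.82 to 3.11 and 2.63 RPKM (log2 difference -0.86, SE 0.0659, limma adjusted p = 0.0022). FASN, fatty acid synthase, rose from 76.7 and 74.1 to 85.9 and 87.1 RPKM (0.20, SE 0.0263, limma adjusted p = 0.0108). ACACB, a mitochondrial acetyl-CoA carboxylase, rose from 2.22 and 2.20 to 2.64 and 2.86 RPKM (0.22, SE 0.0423, limma adjusted p = 0.0294). The difference of ACACB was 0.18 to 0.27 when a library was left out, and its call was lost without growing library 1 (adjusted p = 0.0974), without growing library 2 (0.0989) or without mTOR-inactive library 2 (0.105). The more abundant SCD (0.01), LDHA (-0.01) and ACLY (0.05) were not called. Of the 15 genes listed, 12 were in the promoter table, with 20 starts, and 5 of the 12 had an E-box and 1 a pair at any start. These counts are per gene and the shares given above are per promoter, so they cannot be compared, and a share per gene was not computed.

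In the list named for glucose uptake and phosphorylation, not all of whose genes make glucose 6-phosphate, 1 of 11 tested was called (median -0.02). GPI, which turns glucose 6-phosphate into fructose 6-phosphate, was at 40.3 and 39.8 RPKM growing and 43.7 and 43.4 RPKM after PP242 (0.12, SE 0.024, limma adjusted p = 0.0368). The difference was 0.11 to 0.13 when any 1 of the 4 libraries was left out, but the call was lost (adjusted p = 0.0949 to 0.133), as it was without the variance trend (0.073). Leaving out a library, here and for ACACB, leaves 1 library in a condition, which is assumed to vary like the pair of the other, so such a fit has less power. SLC2A1, the glucose transporter GLUT1 that TXNIP removes from the membrane, was at 11.1 and 11.9 RPKM growing and 10.0 and 10.2 RPKM after PP242, without overlap (-0.17, SE 0.0406, limma adjusted p = 0.0526), and passed the threshold when the fit used sums per gene (adjusted p = 0.0396). HK2, a hexokinase, had a difference of -0.06 and HK1 of 0.10, the latter called in the fit on sums (adjusted p = 0.0489).

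In the thioredoxin system, the reducing enzymes whose thioredoxin TXNIP binds, 1 of 13 genes was called (median -0.01). SRXN1, sulfiredoxin, which reactivates oxidized peroxiredoxins, fell from 22.7 and 22.2 to 18.7 and 19.1 RPKM (-0.24, SE 0.0283, limma adjusted p = 0.00738). TXN, thioredoxin itself and the partner of TXNIP, was at 248 and 245 RPKM growing and 245 and 242 RPKM after PP242 (-0.02, limma adjusted p = 0.562). The abundant peroxiredoxins PRDX1 (-0.01), PRDX2 (-0.04) and PRDX4 (-0.08) were not called. TXN thus exceeded TXNIP per length in every library, also where TXNIP was highest.

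Among the other arrestins, 0 of 3 tested were called by limma (1 at an unadjusted p under 0.05; 0 in the fit on sums), with a median of 0.03. ARRDC1 was at 11.7 and 11.3 RPKM growing and 12.8 and 12.1 RPKM after PP242 (0.11, SE 0.0366, limma adjusted p = 0.123), and the beta-arrestins ARRB1 and ARRB2 differed by 0.03 and 0.01. Of the NEDD4-family ubiquitin ligases, which alpha-arrestins bind, 0 of 6 tested were called by limma (0 at an unadjusted p under 0.05; 0 in the fit on sums), with a median of 0.05. The most abundant were WWP1 (-0.01), SMURF2 (0.05), ITCH (0.06) and WWP2 (0.06).

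**Figure D5:**
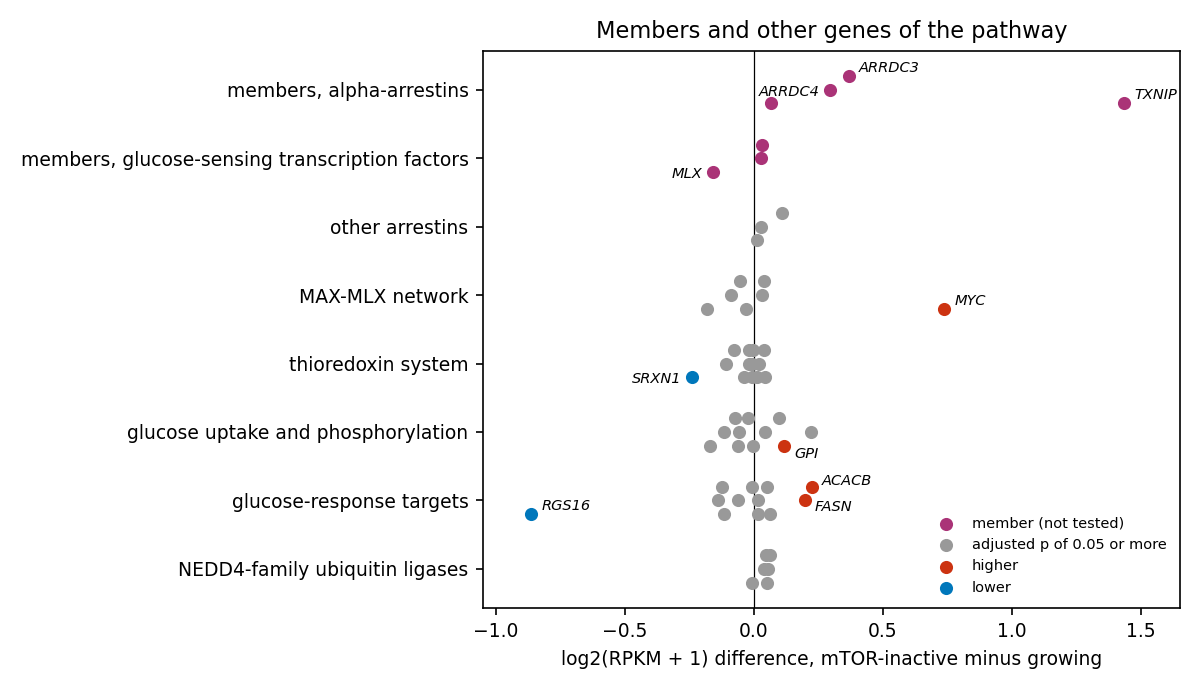
log2(RPKM + 1) difference, mTOR-inactive minus growing, for the members (purple, not tested) and for the genes of 6 pathway lists with a mean of at least 1 RPKM (grey, not called; red, called higher; blue, called lower by limma at an adjusted p of 0.05). MYC at 0.74 and RGS16 at -0.86 stand apart, most other genes lie near 0, and TXNIP at 1.43 lies beyond them all.

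No LARP1 PAR-CLIP site was listed on any of the 13 transcripts of the 7 genes, in growing or in mTOR-inactive cells. Of 9241 genes between 1 and 25 RPKM, 10.1% had a listed site in the growing and 9.72% in the mTOR-inactive library, and 0.963% and 2.18% had one of at least 1 RPM (reads scaled to the mapped reads of the library). With 1 library per condition there is no replicate check. The lists hold only sites that passed the filters of the authors, so a gene without a listed site may still be contacted by LARP1.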

How the data were processed

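mRNA-seq was analysed in 4 HEK293T libraries, 2 growing and 2 mTOR-inactive, and LARP1 PAR-CLIP in 1 library per condition. The authors removed linkers, mapped reads to the transcriptome of GRCh37 with Bowtie, kept perfect matches, divided reads matching several places evenly, and deposited, for every transcript, the RPKM of each library and the mean per condition. For PAR-CLIP the authors deposited filtered sites as RPM, with the RPM over RPKM as a ratio and a T-to-C column treated as a score. These latter columns were not used. Of 39711 lines in the mRNA-seq table, 1273 repeats were dropped, which left 38438 transcripts, 5989 of them without a gene name. Every per-sample column was used.

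The members and gene lists were chosen with earlier results of these data known. Differences were fitted with limma 3.58.1 in R 4.3.3 (eBayes with trend) on log2(RPKM + 1) for transcripts averaging 1 RPKM or more, and p-values were adjusted by Benjamini-Hochberg. RPKM are not counts, so no count test was used. A gene's value is its transcript with the highest mean RPKM, and levels of members are sums over transcripts. The lists give 66 symbols for 65 genes, because MYCL is the newer name of MYCL1. Named were the members, list genes that passed the test with up to 4 others of highest RPKM per list, and the nearest profiles; MAX transcripts and genes called only on sums were chosen after their values were seen. In simulated data for 21014 transcripts in this comparison, 100 of 100 changes of 0.5 and 100 of 100 of 1 (log2) were recovered, with 8 false calls. The simulated noise followed a smooth SD by level, without extra spread between transcripts of like level. Smaller changes were not simulated, so the power for differences such as those of GPI, FASN, ACACB and SRXN1 is not known. The same holds for small differences of genes not called. Motifs were searched in Python 3.11.15 (numpy 2.4.6, pandas 2.3.3, matplotlib 3.10.9), and gene positions are from GENCODE v44lift37. Protein sequences were not analysed here.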

Additional observations from a re-analysis of the deposited data

How the results depend on the processing

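The differences of TXNIP (1.37 to 1.54), ARRDC3 (0.32 to 0.47), ARRDC4 (0.23 to 0.36) and MLX (-0.18 to -0.14) kept their sign in each alternative that gave a value. Their conditions did not overlap, so leaving out a library could not have reversed the sign. ARRDC2 (0.01 to 0.12) and MLXIP (0.01 to 0.06), whose conditions overlapped, also kept theirs. A filter at 5 RPKM left out ARRDC3 and ARRDC2, and the fit without the variance trend does not alter a difference. The highest value of TXNIP came with a pseudocount of 0.1 RPKM. Without a filter on RPKM, limma called 57 transcripts higher and 63 lower, against 731 and 1356, and among the pathway genes 1 higher and 0 lower; at an unadjusted p under 0.05, 8 were higher and 12 lower. MYC was the gene kept, and SRXN1, GPI, FASN, ACACB and RGS16 lost their calls (adjusted p = 0.0626 to 0.136). With RPKM summed over transcripts, 6 pathway genes were higher and 5 lower, the added ones being HK1, MXD1, MAX, MXI1 and SLC2A1. SLC2A1 has 1 transcript, so its values and difference (-0.17) were unchanged and only the fit, now over 11951 genes, differed. Leaving out each library in turn gave 310 to 348 transcripts higher and 553 to 741 lower, and 2 to 3 pathway genes in each direction. By library, 310 and 553 transcripts were higher and lower without growing library 1, 325 and 647 without growing library 2, 348 and 687 without mTOR-inactive library 1, and 319 and 741 without mTOR-inactive library 2. In these fits 1 condition has 1 library, which is assumed to vary like the other condition, so fewer calls follow from the smaller design. Elsewhere the cause was not tested. Over all alternatives, 57 values of the called pathway genes kept their call, 13 lost it and 0 reversed.

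With the replicate number as a block, 716 transcripts were higher and 1419 lower, and 5 pathway genes higher and 3 lower. Same-numbered libraries are not known to share more than a number. Their deviations had a correlation of 0.0401 over transcripts, but with only 2 pairs this cannot decide whether the libraries were paired. RPKM holds no read number, so no counting error is given, and the PAR-CLIP count of 0 also held for sites of at least 1 RPM.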
